A study of Mus musculus with 17 samples.

Results

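The respiratory chain and the ATP synthase of the inner mitochondrial membrane are built from proteins encoded in the nucleus and in mitochondrial DNA, and the nuclear genes for them are described here in mouse kidney. Members were taken by name from the deposited count table: protein-coding genes whose symbols begin with Nduf followed by a, b, c, s or v, with Uqcr, with Cox4 to Cox8 or with Atp5, the 4 genes Sdha to Sdhd, and Cyc1 and Cycs. They also needed at least 10 counts in at least 8 of the 17 libraries. Of 96 protein-coding genes with such names, 89 met the threshold, out of 55487 genes in the table, of which 12224 met the same threshold. By complex, 37 of 38 candidates were kept for complex I, 4 of 4 for complex II, 9 of 9 for complex III, 14 of 18 for complex IV and 16 of 18 for complex V. Cytochrome c (Cycs) and 8 complex I assembly factors named Ndufaf, which are not subunits, make up the rest. The members with the fewest counts were Atp5s, with 221 counts and 11 libraries at 10 or more, and Ndufa4l2, with 225 and 13. Just outside the threshold lay Cox8b, with 398 counts but only 5 libraries at 10 or more, and Atp5g2, with 120 counts and 3 such libraries. The other candidates left out were Ndufs5 (27 counts), Cox4i2 (50), Cox7b2 (2), Cox8c (1) and another identifier of Atp5o (0). The members held 2.40% of all gene counts.

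Kidneys of male mice aged 16 weeks were compared, with 1 library per animal. The 8 db/m animals carried 1 copy of db, a mutation of the leptin receptor gene Lepr, and the 9 db/db animals carried 2 copies. With both copies mutant, no cell of the mouse makes a working long receptor, and such mice are obese and diabetic. The groups follow the sample titles. In all 17 samples the genotype field states the reverse, and were that field correct, every direction below would be the other way. The db/m libraries are numbered 1 to 8 and the db/db libraries start at 9, so a batch in the order of those numbers and the genotype cannot be told apart.

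Complexes I and II pass electrons from NADH and succinate to coenzyme Q, complex III passes them on to cytochrome c, and complex IV passes them to oxygen. Complexes I, III and IV pump protons in doing so, and the ATP synthase, complex V, lets the protons back to make ATP. Complex II is encoded in the nucleus only, whereas the other complexes also need subunits from mitochondrial DNA. Tubule cells of the kidney, above all those of the proximal tubule and thick ascending limb, are rich in mitochondria and use much of their ATP to reabsorb sodium. Nuclear respiratory factor 1 (NRF1), the ETS factor GABP, YY1 and estrogen-related receptors are known to bind promoters of many of these genes.

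Promoters were examined because 17 members were called higher in db/db and 0 lower, as given below. RefSeq promoter stretches of the mouse build GRCm38.p6, from 250 bases before to 50 bases after the start, were found for 71 of the 89 members. They include 13 of the 17 called members. Exact matches on both strands were sought for CCGGAAG (ETS), AAGATGGC (YY1), AAGGTCA (estrogen-related receptors) and the NRF1 palindrome of 10 letters, which is the longer capital run in Ndufa11 and Cox6a1 below. The 4 motifs do not overlap each other in the stretches shown. The stretches shown are the 250 bases before the start of 4 members. The called members Ndufa11, Ndufs3 and Cox6a1 have a match there, and Cycs, which was not called, has no exact match. They lie at chr17:56717512-56717761 (plus strand), chr2:90904722-90904971, chr5:115348959-115349208 and chr6:50566570-50566819 (minus strand for these 3). Capitals mark the matches, and each line reads 5′ to 3′ towards the start.
Ndufa11: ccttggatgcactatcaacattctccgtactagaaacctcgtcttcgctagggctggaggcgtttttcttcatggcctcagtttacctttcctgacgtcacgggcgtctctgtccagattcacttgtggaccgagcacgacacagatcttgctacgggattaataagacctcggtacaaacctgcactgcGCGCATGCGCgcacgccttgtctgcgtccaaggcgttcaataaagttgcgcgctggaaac
Ndufs3: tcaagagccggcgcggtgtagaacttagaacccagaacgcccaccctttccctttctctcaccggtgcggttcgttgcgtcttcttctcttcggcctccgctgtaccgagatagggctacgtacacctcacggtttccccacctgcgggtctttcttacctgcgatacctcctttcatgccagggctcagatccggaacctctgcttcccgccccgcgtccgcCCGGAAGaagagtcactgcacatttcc
Cox6a1: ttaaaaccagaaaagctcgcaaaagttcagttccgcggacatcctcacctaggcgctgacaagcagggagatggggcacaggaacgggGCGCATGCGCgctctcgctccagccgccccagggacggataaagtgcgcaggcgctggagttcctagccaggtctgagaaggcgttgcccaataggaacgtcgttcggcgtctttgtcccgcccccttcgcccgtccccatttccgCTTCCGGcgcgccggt
Cycs: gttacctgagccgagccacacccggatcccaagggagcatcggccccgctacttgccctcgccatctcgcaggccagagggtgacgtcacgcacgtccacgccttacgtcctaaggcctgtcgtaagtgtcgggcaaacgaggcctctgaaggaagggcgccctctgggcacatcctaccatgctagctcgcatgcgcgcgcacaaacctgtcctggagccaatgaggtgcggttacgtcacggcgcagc

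In Ndufa11 the NRF1 letters lay 60 to 51 bases before the start, and in Cox6a1 they lay 162 to 153 bases before it. The ETS letters lay 27 to 21 bases before the start of Ndufs3 and, on the opposite strand, 16 to 10 bases before that of Cox6a1. A match after the start was found in Ndufc1 and Ndufs4 (YY1), in Uqcrc1 (NRF1) and again in Ndufs3 (ETS). Of the 71 members, 6 (8.45%) held the NRF1 letters, 18 (25.4%) the ETS letters, 10 (14.1%) the YY1 letters and 7 (9.86%) those of the estrogen-related receptors. Among the 9052 tested genes with a promoter these shares were 2.33%, 20.4%, 5.52% and 3.90%. Among all 27025 genes with a promoter they were 1.07%, 9.93%, 3.19% and 5.38%. At least 1 of the 4 was present in 6 of the 13 called members (46.2%) and in 27 of the 58 others (46.6%). By motif, the NRF1 letters were in 3 of 13 called members (23.1%) and 3 of 58 others (5.17%), the ETS letters in 15.4% and 27.6%, the YY1 letters in 15.4% and 13.8%, and those of the estrogen-related receptors in 0% and 12.1%. These counts are small, and the differences were not tested. A match describes letters only and does not show binding. Nor does the lack of an exact match show that no factor binds. The Cycs stretch holds the NRF1 letters except for the first.

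Setting db/db kidneys against db/m kidneys asks how expression differs with the diabetic genotype. Of the 89 members, 17 (19.1%) were higher in db/db at an adjusted p under 0.05, where 3.91% of the 12131 genes tested were higher, and 0 were lower, where 3.49% were and 7.39% changed in either direction (edgeR's quasi-likelihood F-test, Benjamini-Hochberg adjusted over all genes tested). At an unadjusted p under 0.05, 38 members were higher and 1 lower, against 11.6% and 9.52% of all genes. DESeq2 called 20 higher and 0 lower, against 3.77% and 3.6% of the genes it tested. The log2 fold change, db/db minus db/m throughout, was above 0 for 73 members (82.0%) and for 50.5% of all genes, and its median was 0.20 over the members and 0.003 over all genes. Single members ranged from -0.46 to 1.02, so most differences were modest. The members were also abundant: of all 665 genes at or above their median level of 183 CPM (counts scaled to a common library total), 10.1% were higher, against 11 of the 45 members in that range (24.4%). In whole kidney, more cells of a kind and more RNA per cell cannot be told apart.

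**Figure D1:**
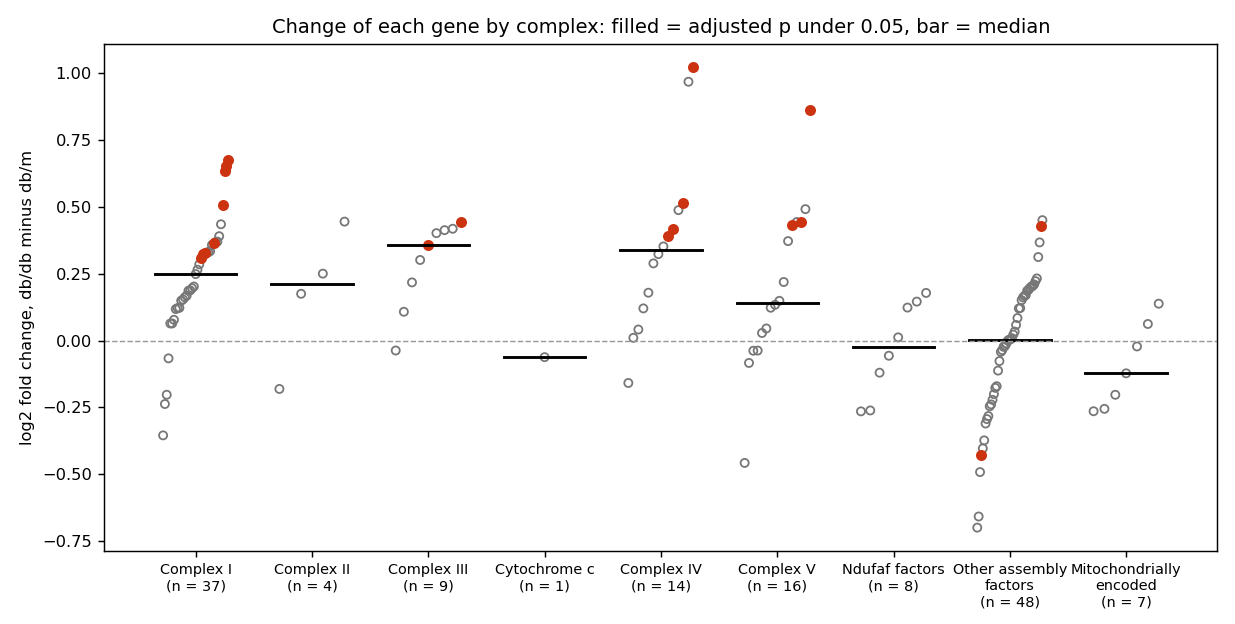
Log2 fold change (db/db minus db/m, vertical axis) of each gene, grouped by complex along the horizontal axis. Each point is a gene, filled where its adjusted p was under 0.05, and bars are group medians. The medians of complexes I to V lie between 0.14 and 0.36, and those of cytochrome c, of the Ndufaf factors and of the other assembly factors lie at -0.06, -0.02 and 0.004. The complex II median includes Sdhd, whose direction differed between edgeR and DESeq2.

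The count of called members changed when single libraries were left out. It was 9 without db/m replicate 1, 2 or 6, 10 without db/m replicate 3 or 8, 7 without db/m replicate 4, and 11 without db/db replicate 5 or 7. For the other 9 libraries it lay between 14 and 20 when each was left out. The share of all genes called higher in these 8 fits was 3.12%, 2.91% and 3.26% without db/m replicates 1, 2 and 6, 3.09% and 3.77% without 3 and 8, 2.6% without 4, and 3.25% and 3.16% without db/db replicates 5 and 7. Ndufa5, Uqcrq, Cox6a1, Cox6b2, Cox6c, Atp5g1 and Atp5mpl were called in all 17 fits that left out 1 library, and Atp5o in all but the fit without db/m replicate 4.

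In complex I, the entry point for electrons from NADH, 8 of 37 members were higher and 33 had a positive value (median 0.25, from -0.35 to 0.67). Over all genes tested 3.91% were higher and 50.5% positive, and over genes at or above the median member level 10.1% and 57.6%. Ndufa5 (ENSMUSG00000023089, chromosome 6), an accessory subunit of the matrix arm, was the most raised. It lay at 464 (lowest), 535 (median) and 669 (highest) CPM in db/m and at 629, 795 and 1494 CPM in db/db. Of the 9 db/db libraries, 7 lay above the highest db/m library, and the ranges overlapped only through the lowest db/db libraries. Its means were 548 ± 82.7 and 874 ± 295 CPM (SD; n = 8 and 9), a log2 fold change of 0.67 (SE 0.16, 95% interval 0.33 to 1.01; adjusted p = 0.0122 by edgeR; exact permutation p = 0.000740, two-sided).

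Ndufb10 (ENSMUSG00000040048, chromosome 17), an accessory subunit of the membrane arm, varied little within a group. It spanned 147 to 174 CPM in db/m (median 156) and 164 to 255 CPM in db/db (median 194), with 8 of 9 db/db libraries above all db/m libraries. The log2 fold change was 0.33 (SE 0.09; adjusted p = 0.0239 by edgeR; exact permutation p = 0.000247). Ndufb9, another membrane-arm accessory subunit, went from 404 ± 53.8 to 521 ± 66.0 CPM (0.37, SE 0.10; adjusted p = 0.0271 by edgeR). Its call ended in 8 of the 17 fits that left out 1 library, and that of Ndufb10 in 4.

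Among the other called complex I members, Ndufc1, a small membrane-arm subunit, rose from 143 ± 23.2 to 222 ± 81.1 CPM (0.63, SE 0.17; adjusted p = 0.0256 by edgeR). Ndufa11, also of the membrane arm, rose from 177 ± 26.8 to 251 ± 67.4 CPM (0.51, SE 0.14; adjusted p = 0.0330 by edgeR). Ndufs4, a matrix-arm accessory subunit whose loss causes a Leigh-like encephalopathy in mice, rose from 130 ± 9.93 to 161 ± 20.2 CPM (0.31, SE 0.09; adjusted p = 0.0406 by edgeR). Every db/db library lay above the db/m median for Ndufc1 and Ndufs4, and 8 of 9 did for Ndufa11. Ndufa7, of the matrix arm, rose from 103 ± 6.97 to 129 ± 20.2 CPM, and its adjusted p of 0.04996 by edgeR was just under the threshold. Calls ended in 4 of the 17 fits without 1 library for Ndufc1, 9 for Ndufa11, 10 for Ndufs4 and 14 for Ndufa7. Ndufb7 (0.37, SE 0.12) lay just outside, with an adjusted p of 0.0547 by edgeR.

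The 7 nuclear core subunits, which carry the redox groups or line the quinone site, were all on the positive side but only Ndufs3 was called. Ndufs3 (ENSMUSG00000005510, chromosome 2) was low in this table. It lay at 13.4 to 21.3 CPM in db/m (median 17.5) and 19.2 to 50.9 CPM in db/db (median 22.4), with 5 of 9 db/db libraries above the db/m range (log2 fold change 0.65, SE 0.19; adjusted p = 0.0385 by edgeR). That call ended in 10 of the 17 fits without 1 library. The core median was 0.16, and that of the 30 accessory subunits, 7 of them called, was 0.26. Whether these differ was not tested. Ndufs1, the largest core subunit, was at 192 ± 13.01 and 203 ± 24.5 CPM.

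Complex II, which is also an enzyme of the citric acid cycle, had 0 of 4 members called by edgeR or DESeq2 and a median of 0.21. By edgeR, 3.91% of all genes tested were higher and 3.49% lower. Sdhb, its iron-sulfur subunit and most abundant member here, was at 764 ± 95.6 and 909 ± 165 CPM (0.25, SE 0.12; adjusted p = 0.215 by edgeR). Sdha, the flavoprotein, was at 522 ± 19.4 and 589 ± 63.7 CPM (0.17, SE 0.08; adjusted p = 0.231 by edgeR), and 6 of 9 db/db libraries lay above the db/m range. Both passed at an unadjusted p under 0.05 only. The membrane anchors Sdhc and Sdhd varied far more within groups and are taken up below. The edgeR value of Sdhd was 0.44 (SE 0.73) and that of DESeq2 -1.23, so no direction can be given for it. The complex II median of 0.21 includes this edgeR value, so that median is uncertain too.

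In complex III, 2 of 9 members were higher and 8 were positive (median 0.36), against 3.91% and 50.5% of all genes tested. Uqcrq (ENSMUSG00000044894, chromosome 11), a small subunit that sits beside cytochrome b, had the lowest adjusted p of all members by edgeR, while by DESeq2 Cox6a1 was lower. It lay at 344, 387 and 464 CPM in db/m (lowest, median, highest) and at 444, 525 and 694 CPM in db/db. The db/m maximum overlapped 3 of the 9 db/db libraries. The means were 389 ± 35.9 and 529 ± 84.7 CPM, a log2 fold change of 0.44 (SE 0.10, interval 0.23 to 0.66; adjusted p = 0.00838 by edgeR; exact permutation p = 0.000411). Uqcrc1, a core protein of the matrix side, rose from 337 ± 40.6 to 432 ± 64.6 CPM (0.36, SE 0.10; adjusted p = 0.0370 by edgeR), and 7 db/db libraries lay above the db/m range. Its call ended in 11 of the 17 fits without 1 library.

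Cyc1, the cytochrome c1 that hands electrons to cytochrome c, was at 216 ± 27.6 and 285 ± 66.7 CPM (0.40, SE 0.13) and narrowly missed with edgeR (adjusted p = 0.0571), while DESeq2 gave an adjusted p of 0.0444. Uqcrh, the hinge protein and the most abundant member of the complex, was at 552 ± 94.0 and 735 ± 208 CPM (0.41; adjusted p = 0.105 by edgeR). Cycs (ENSMUSG00000063694, chromosome 6), the mobile carrier between complexes III and IV and a trigger of apoptosis, was not called. It spanned 55.4 to 103 CPM in db/m (median 70.0) and 52.4 to 101 CPM in db/db (median 67.0), so the groups overlapped almost fully (log2 fold change of -0.06, SE 0.14, interval -0.35 to 0.22; adjusted p = 0.846 by edgeR).

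**Figure D2:**
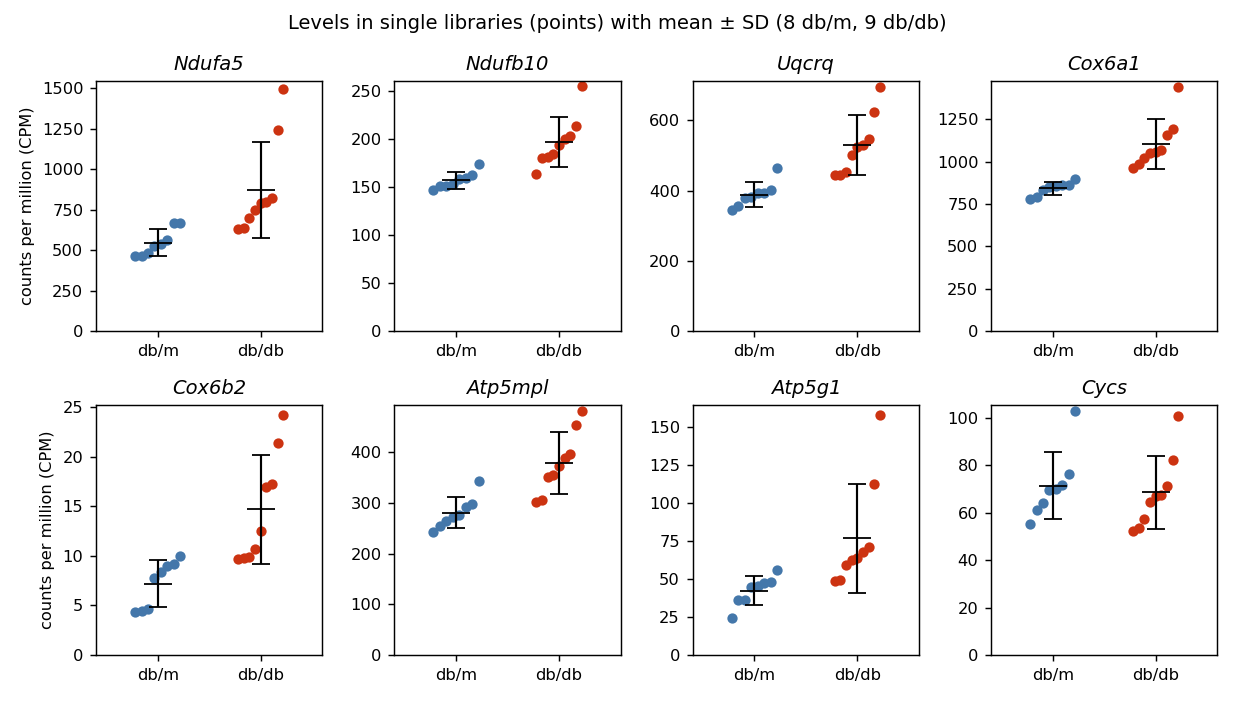
Level in CPM (vertical axes, from 0) of 8 members in each of the 8 db/m and 9 db/db libraries (points), with mean and SD as bars. Cox6a1 has no overlap between groups, Ndufa5 and Atp5g1 have 2 high db/db libraries each, and Cycs overlaps almost fully.

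In complex IV, cytochrome c oxidase, 4 of 14 members were higher and 13 were positive (median 0.34), against 3.91% and 50.5% of all genes tested. Cox6a1 (ENSMUSG00000041697, chromosome 5) encodes the subunit VIa isoform found in most tissues. Its levels were 778 (lowest), 855 (median) and 900 (highest) CPM in db/m and 962, 1055 and 1443 CPM in db/db. It was the only member whose groups did not overlap, which 0.734% of all genes tested showed in this direction and 1.05% in the other. The means were 842 ± 40.2 and 1105 ± 146 CPM, a log2 fold change of 0.39 (SE 0.09, interval 0.20 to 0.58; adjusted p = 0.00883 by edgeR; exact permutation p = 8.2e-05, two-sided).

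Cox6c (ENSMUSG00000014313, chromosome 15), a subunit without tissue isoforms, spanned 639 to 933 CPM in db/m (median 768) and 793 to 1555 CPM in db/db (median 1117). Of the db/db libraries, 7 lay above the db/m range, and the log2 fold change was 0.51 (SE 0.13; adjusted p = 0.0150 by edgeR). The processed pseudogene Cox6c2, at 60.4 ± 35.7 and 51.6 ± 36.7 CPM, could share reads with Cox6c. Cox7a2, the subunit VIIa isoform of most tissues, rose from 599 ± 83.7 to 801 ± 140 CPM (0.42, SE 0.11; adjusted p = 0.0269 by edgeR), a call that ended in 6 of the 17 fits without 1 library. Cox4i1, the common isoform of subunit IV, was at 598 ± 74.3 and 839 ± 273 CPM, all db/db libraries lying above the db/m median (0.49, SE 0.16; adjusted p = 0.0642 by edgeR and 0.0444 by DESeq2). Cox5a and Cox8a were at 346 ± 26.2 and 423 ± 88.9 CPM and at 410 ± 65.7 and 413 ± 155 CPM.

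Several complex IV subunits have a second isoform that is typical of heart and skeletal muscle, of lung or of testis, and these stayed minor in kidney. Cox6b2 (ENSMUSG00000051811, chromosome 7), known as the testis isoform of subunit VIb, had the largest log2 fold change of all members. It lay at 4.35, 8.03 and 9.95 CPM in db/m and at 9.66, 12.5 and 24.2 CPM in db/db (lowest, median, highest), 6 of 9 db/db libraries lying above the db/m range. This is a log2 fold change of 1.02 (SE 0.24, interval 0.53 to 1.51; adjusted p = 0.00883 by edgeR; exact permutation p = 0.000411). Its share of the Cox6b1 and Cox6b2 counts was 1.45% ± 0.477 in db/m and 2.89% ± 1.99 in db/db.

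Cox6a2, the muscle isoform of subunit VIa, took 1.10% ± 0.675 and 1.61% ± 0.713 of the Cox6a counts, and at 0.97 (SE 0.34) it did not pass the test (adjusted p = 0.0901 by edgeR). Cox4i2, the lung isoform, had 20 counts in all db/m libraries and 30 in all db/db libraries, and Cox4i1 held 99.9% of that pair in both groups. Cox7a1, the muscle isoform of subunit VIIa, was at 20.6 ± 12.0 and 18.5 ± 4.14 CPM, and 46.5 CPM in db/m replicate 8 was its highest value. Cox8b, another muscle and brown fat isoform, had its highest value of 40.8 CPM in the same library. The brown fat markers Ucp1, Cidea, Elovl3 and Cox8b summed to 413 CPM there, the highest of the 0.46 to 413 CPM seen over db/m libraries and above the 0.21 to 77.9 CPM of db/db. Ucp1 was at 0 in 4 libraries, Cidea in 2, Elovl3 in 14 and Cox8b in 6. The part of fat tissue in these values was not tested. Cox7a2l, which joins complexes III and IV into supercomplexes, was at 51.5 ± 11.3 and 64.5 ± 22.6 CPM (0.32; adjusted p = 0.308 by edgeR). Ndufa4, counted here with complex I by its name but known to bind complex IV, was at 65.3 ± 26.9 and 51.3 ± 32.2 CPM (-0.35; adjusted p = 0.646 by edgeR).

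In complex V, 3 of 16 members were higher and 12 positive (median 0.14), against 3.91% and 50.5% of all genes tested. Atp5g1 (ENSMUSG00000006057, chromosome 11) is 1 of 3 genes that encode the same mature c subunit of the proton-driven ring. It lay at 24.3, 45.2 and 56.05 CPM in db/m and at 48.9, 63.6 and 158 CPM in db/db (lowest, median, highest). Of the db/db libraries, 7 lay above the db/m range, and replicates 7 and 8 stood highest at 113 and 158 CPM. This is a log2 fold change of 0.86 (SE 0.22, interval 0.41 to 1.32; adjusted p = 0.0171 by edgeR; exact permutation p = 0.000823). Atp5g3, the most abundant member of the whole set, was at 1323 ± 345 and 1466 ± 568.1 CPM (0.15; adjusted p = 0.785 by edgeR), and Atp5g2 had 37 and 83 counts. Of the counts of the 3 genes, Atp5g1 held 3.41% ± 1.53 in db/m against 7.31% ± 9.30 in db/db, and Atp5g3 held 96.5% ± 1.52 and 92.5% ± 9.47. In db/db replicate 8 Atp5g3 was at 339 CPM, the lowest of all 17 libraries, while Atp5g1 was highest there.

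Atp5mpl (ENSMUSG00000021290, chromosome 12), a small membrane proteolipid of the synthase, spanned 243 to 343 CPM in db/m (median 275) and 302 to 482 CPM in db/db (median 374). It was above the db/m range in 7 of 9 db/db libraries (0.43, SE 0.11; adjusted p = 0.0126 by edgeR). Atp5o (ENSMUSG00000022956, chromosome 16), the subunit of the peripheral stalk that confers oligomycin sensitivity, rose from 422 ± 61.4 to 575 ± 101 CPM (0.44, SE 0.12; adjusted p = 0.0198 by edgeR). The catalytic pair Atp5a1 and Atp5b was at 953 ± 129 and 1045 ± 249.3 CPM and at 763 ± 89.1 and 778 ± 218 CPM, with log2 fold changes of 0.13 (SE 0.13) and 0.03 (SE 0.17). Atp5s, which is not a subunit of the core enzyme, had the lowest value of the set at -0.46 (SE 0.37; adjusted p = 0.525 by edgeR).

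Summed over each complex, mean levels were higher in db/db for all 5 complexes. The ratio of mean summed CPM was 1.22 for complex I, 1.14 for II, 1.26 for III, 1.28 for IV and 1.17 for V. For complex IV the sums did not overlap, at 4244 to 4748 CPM in db/m and 4843 to 7065 CPM in db/db. Those of complexes I, II, III and V did overlap. For complex V they lay at 4637 to 5874 CPM in db/m and 4907 to 7932 CPM in db/db. All members together summed to 21871 ± 717 CPM in db/m (20995 to 23279) against 26571 ± 2999 CPM in db/db (22674 to 32975), where only the lowest db/db library lay within the db/m range. No test was made on these sums, since their genes were chosen with earlier results known. For comparison, 14 genes of mitochondrial mass had a ratio of 1.03, and 0 of the 13 tested were called by edgeR and 1 was higher by DESeq2 (unadjusted p under 0.05: 1 higher, 1 lower). EdgeR called 7.39% of all genes tested in either direction.

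**Figure D3:**
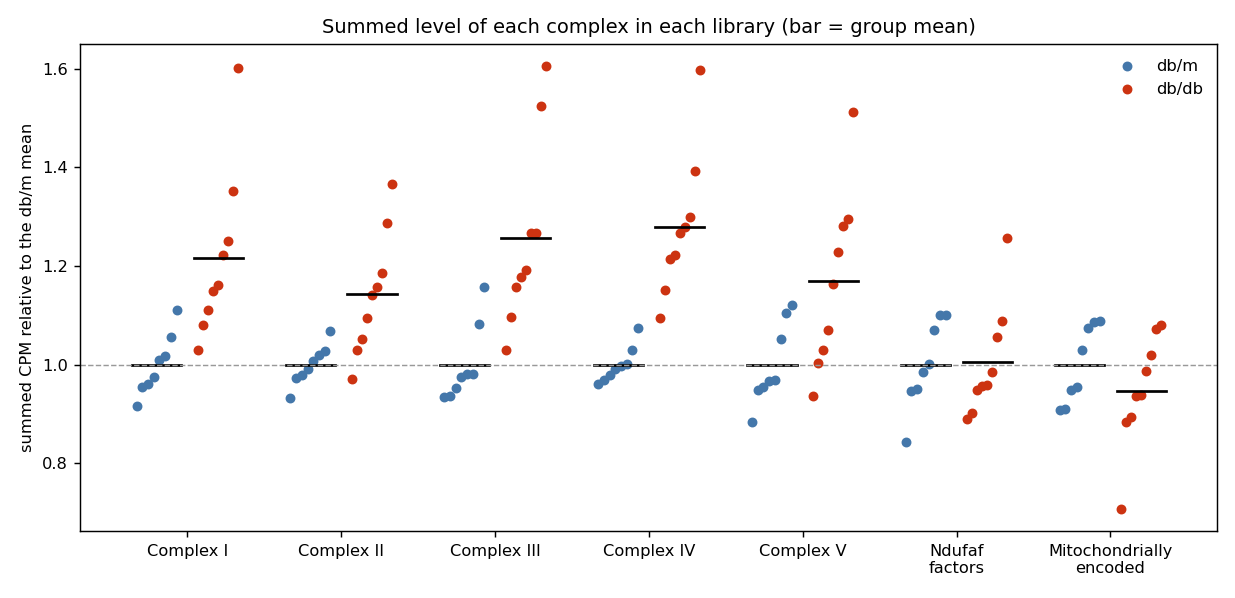
Summed CPM of each complex, of the Ndufaf factors and of the mitochondrially encoded subunits (horizontal axis) in each library, divided by the db/m mean of that sum (vertical axis). Points are libraries and bars are group means. The db/db mean is 1.28 times that of db/m for complex IV, 1.005 for the Ndufaf factors and 0.95 for the mitochondrially encoded genes, and the highest db/db point of complexes I to IV is replicate 7.

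Few of the helpers that build the complexes were called. Of the 8 Ndufaf factors, 0 were called by edgeR or DESeq2, and the median was -0.02. With 7.39% of all genes tested called by edgeR in either direction, 0 of 8 is near that share. Ndufaf2 was the only member lower at an unadjusted p under 0.05, at 23 ± 3.65 CPM in db/m against 19.1 ± 2.97 in db/db (-0.27, SE 0.12; adjusted p = 0.224 by edgeR). Of 48 tested assembly factors with other names, 1 was higher and 1 lower by edgeR (against 3.91% and 3.49% of all genes), and 2 were higher and 2 lower by DESeq2 (median 0.004). Acad9, a complex I assembly factor named after its values were seen, was at -0.66 (SE 0.21) with groups that did not overlap, and its adjusted p was 0.0549 by edgeR and 0.0364 by DESeq2. Ttc19, which clears a peptide left in new complex III, rose from 36.5 ± 3.82 to 49.1 ± 8.64 CPM (0.43, SE 0.11; adjusted p = 0.0217 by edgeR). Lyrm2, a complex I assembly factor, fell from 27.2 ± 2.17 to 20.2 ± 3.66 CPM (-0.43, SE 0.12; adjusted p = 0.0308 by edgeR). By complex, the median was -0.19 over 10 factors for complex I, -0.18 over 4 for II, 0.18 over 6 for III, 0.07 over 24 for IV and 0.06 over 4 for V. The difference between subunits and assembly factors was not tested.

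Partner subunits encoded in mitochondrial DNA were not called. Of 13 such genes 7 could be tested, 0 were called by edgeR or DESeq2, 0 had an unadjusted p under 0.05, and the median was -0.12. Among all genes tested 7.39% were called by edgeR in either direction, so 0 of 7 is near that share. Their sum was 231170 ± 18076 CPM in db/m against 218820 ± 26540 in db/db. The most abundant, mt-Nd4, was at 122050 ± 10764 and 120180 ± 25020 CPM (-0.02, SE 0.15). Of the 6 that were too low to test, mt-Co2, mt-Nd3 and mt-Nd4l had 0 counts in all libraries, although every working chain needs them, so a low count in this table need not mean low expression. That also limits what can be said of Ndufs5, an essential complex I subunit with 27 counts.

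Some genes that work beside the chain were called, where 3.91% of all genes tested were higher and 3.49% lower by edgeR. Of 13 coenzyme Q synthesis genes, 2 rose: Coq7, the hydroxylase of a late step (106 ± 15.1 to 154 ± 38.3 CPM; 0.53, SE 0.14; adjusted p = 0.0195 by edgeR), and Coq8a, an atypical kinase (0.46, SE 0.12; adjusted p = 0.0249 by edgeR). Of 9 other enzymes that feed electrons to the chain, 1 rose, the proline dehydrogenase Prodh (112 ± 13.6 to 157 ± 27.7 CPM; adjusted p = 0.0120 by edgeR). Of 7 carriers and related genes of adenine nucleotide and proton exchange, 0 were called by edgeR and 1 was higher by DESeq2 (median 0.24; unadjusted p under 0.05: 2 higher, 1 lower). Of 15 regulators, 0 were called by edgeR or DESeq2 and 0 had an unadjusted p under 0.05 (median 0.08). Among these were Ppargc1a, the coactivator of mitochondrial gene expression (0.16, SE 0.15), Nrf1 (0.04, SE 0.12), Gabpa (0.08, SE 0.17), Esrra (0.06, SE 0.21) and Tfam, which packs and transcribes mitochondrial DNA (0.0003, SE 0.19).

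The db/db libraries were less alike than the db/m libraries. Between animals the median coefficient of variation of a member was 15.2% in db/m against 23.7% in db/db, and it was larger in db/db for 81 of 89 members, as it was for 74.4% of all genes tested. Replicate 7 of db/db was the highest of all 17 libraries for 34 members. Replicate 8 of db/db was the highest for 19 and the lowest for 27, and db/m replicate 8 was the lowest for 28.

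Among the db/db libraries, the members moved with the share of reads outside genes at its extremes. This share was 20.2% ± 0.451 of all reads for db/m against 18.3% ± 2.29 for db/db (exact permutation p = 0.0378, two-sided). Replicates 7 and 4 of db/db had the lowest shares, 15.3% and 15.5%, and the highest summed member levels, 32975 and 28146 CPM. Replicates 2 and 3 of db/db had the highest shares, 22.1% and 21.3%, and the lowest member sums of their group, 22674 and 23462 CPM. Within db/m, replicates 2 and 6 had the lowest and highest shares, 19.7% and 20.8%, and similar sums, 21861 and 21740 CPM. The highest db/m sum, 23279 CPM, was in replicate 5 at 20.3%. No correlation was computed. With this share as a covariate, 0 members were called higher and 0 lower, while 1.95% of all genes were still called higher. The median member value was then 0.09, and 59 members were positive. The log2 fold change of Cox6a1 was then 0.29 (SE 0.09; adjusted p = 0.0837 by edgeR), and the log2 fold change of Ndufa5 was 0.56 (SE 0.19; adjusted p = 0.104 by edgeR). Without db/db replicates 4 and 7, an alternative chosen after seeing the data, 6 members were called (Ndufa5, Ndufb10, Uqcrq, Cox6a1, Cox6b2 and Atp5mpl), against 2.56% of all genes, and the median was 0.15. The share differed with genotype and, within db/db, with the member level, so the parts of each cannot be told apart in these libraries.

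**Figure D4:**
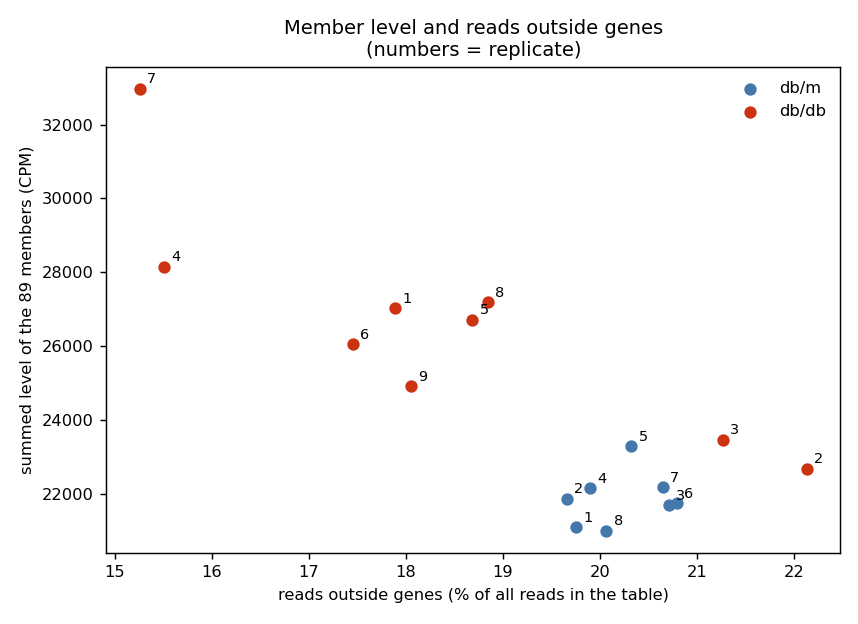
Summed level of the 89 members (vertical axis, CPM) against the share of reads outside genes (horizontal axis, percent of all reads in the table), 1 point per library with its replicate number. The db/m libraries lie close together, and the db/db libraries spread from replicate 2 (22.1%, 22674 CPM) to replicate 7 (15.3%, 32975 CPM).

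A few members varied by several fold between animals of the same group. The coefficient of variation was over 50% in both groups for Ndufa1, Ndufb3, Sdhc, Sdhd, Uqcrfs1, Cox6a2 and Atp5j. Ndufa1, a small complex I subunit encoded on the X chromosome, ranged from 9.26 to 121 CPM in db/m (median 28.5) and from 2.28 to 202 CPM in db/db (median 22.6). Uqcrfs1, the Rieske iron-sulfur protein of complex III, ranged from 72.4 to 253 CPM and from 70.8 to 379.5 CPM (medians 105 and 105). Atp5j, coupling factor 6 of the peripheral stalk, ranged from 8.71 to 85.8 CPM and from 4.95 to 153 CPM (medians 24.55 and 21.98). High and low libraries of these 3 genes lay in both groups, and 0 of the 7 genes were called. For Cox6a2, in contrast, all 9 db/db libraries lay above the db/m median.

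For Ndufa1, Ndufb3, Sdhc, Uqcrfs1 and Atp5j the 4 highest libraries were the same: db/m replicates 2, 4 and 8 and db/db replicate 1. These 4 also had the lowest scores on the first principal component of all genes, from -44.3 to -34.3, while db/db replicate 8 had the highest, 79.2. Of the 4 highest libraries for Sdhd, 3 were among them, and for Cox6a2 none. In db/db replicate 8, Ndufa1 was at 2.28 CPM, Ndufb3 at 13.9 CPM and Sdhc at 34.2 CPM, the lowest of all 17 libraries for each. These scores come from the same libraries and include these genes, so they are a description. With the score as a covariate, also chosen after seeing the data, 23 members were called higher, among them 12 of the 17, while the share of all genes called higher also rose, to 5.82%. Without db/m replicate 8 and db/db replicate 8, the libraries at both ends, 12 were called, against 4.13% of all genes.

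**Figure D5:**
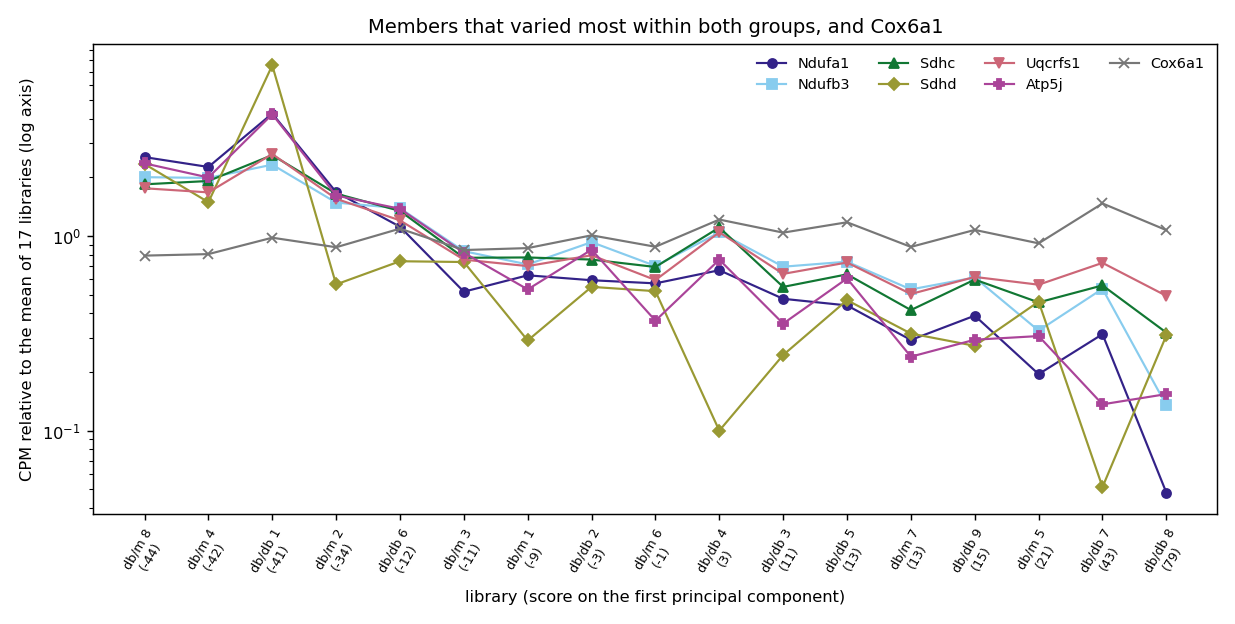
Level of 6 members with a coefficient of variation over 50% in both groups, and of Cox6a1, relative to the mean of the 17 libraries (vertical axis, log scale). Libraries run along the horizontal axis by their score on the first principal component, given in brackets. The 6 members fall from the left to the right of the plot, across db/m and db/db libraries alike. Cox6a1 spans a narrower range, from 778 to 900 CPM in db/m and from 962 to 1443 CPM in db/db.

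Markers of kidney cells gave values beside these results. For the calls among them, 3.91% of all genes tested were higher and 3.49% lower by edgeR. Proximal tubule markers, all 6 of them detected in every library, summed to 6460 ± 639 CPM in db/m (5537 to 7457) against 6359 ± 760 in db/db (5296 to 7151), with 3 of 6 positive and 3 negative. The glucose transporter Slc5a2 was higher (0.46), and the endocytic receptor Lrp2 was at -0.50 (adjusted p = 0.0811 by edgeR). Thick ascending limb markers summed to 2216 ± 663 and 2204 ± 520 CPM, with 2 of 4 positive and 2 negative. Of these Cldn16 was higher (6.40 ± 1.57 to 11.1 ± 3.30 CPM), and the abundant Umod was at -0.35 (adjusted p = 0.188 by edgeR). Collecting duct markers were higher in 5 of 6 and summed to 501 ± 201 CPM (250 to 868) against 972 ± 276 CPM (659 to 1582), and distal convoluted tubule markers were higher in 2 of 4. Podocyte markers were higher in 2 of 4, and 1 of 5 tested leukocyte markers, Ptprc, was lower. All 5 were negative (median -0.53), 3 of them at an unadjusted p under 0.05 by edgeR. The 6 leukocyte markers summed to 257 ± 62.4 CPM in db/m (169 to 357) against 174 ± 67.9 CPM in db/db (84.0 to 319). Adrenal cortex markers stayed at or below 3.47 CPM, with Cyp21a1 at 0 in all libraries. Skeletal muscle markers summed to 7.06 to 254 CPM in db/m and 0.38 to 54.6 CPM in db/db. The 3 of them that were tested were lower at an unadjusted p under 0.05 by edgeR, and 0 were called. White fat markers summed to 0.23 to 265 CPM in db/m and 1.69 to 293 CPM in db/db. Blood markers summed to 1406 to 2816 CPM in db/m and 690 to 5445 CPM in db/db. Endothelial and fibroblast markers had 0 members called by edgeR or DESeq2 (unadjusted p under 0.05: 1 lower in each). The part of such shifts in the member values was not tested.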

How the data were processed

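RNA with a poly(A) tail was sequenced from its 3′ end (QuantSeq forward kit, per the labels' protocols), so counts do not scale with transcript length. These protocols mention cells in plates, while the titles and the tissue field give kidney. The authors deposited raw counts per gene. STAR 2.7.3a and HTSeq 2.16.2 are named in the submitters' processing notes, which list GRCh38 although the identifiers are those of mouse Ensembl. The mouse build, strand setting and duplicate handling were not given in the sources used here, so overlapping genes and close copies are uncertain. The table's line for non-unique alignments is 0. Reads outside genes (19.3%) and ambiguous reads (0.533%) were left out of totals and tests. Libraries held 3256427 to 7627747 gene counts. Symbols were matched for 55141 of 55487 identifiers, and the GENCODE M21 annotation gave biotypes. Of 109 rows with matching names, 13 were noncoding (12 processed pseudogenes), with 0.678% of the counts of all such rows.

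Counts were fitted over all 17 libraries with edgeR 4.0.16 in R 4.3.3 (quasi-likelihood, TMM, filterByExpr at 10 counts, robust off, no covariate), and 12131 genes were tested, all 89 members included. Calls are at a Benjamini-Hochberg adjusted p under 0.05. CPM use TMM factors and are given as mean ± SD. Exact two-sided permutation tests used mean log2 CPM (prior count 2) over 24310 splits. The code was tested on simulated data. Alternatives were DESeq2 1.42.0, limma-voom (limma 3.58.1), other scalings and filters, a replicate block, covariates and leaving out each library. No library was a copy of another. Genes named are the called members, the 3 members of smallest p and the most abundant of each complex, and isoform pairs. Also named are the members with the fewest counts, the left-out candidates with the most, and the called genes of each pathway list. Others named (such as Ndufs1, Cox5a, the catalytic subunits, the variable members and the regulators) were chosen after their values were seen. Part of the strain genotype given in the labels is not reported here. The members and lists were chosen with earlier results of these data known.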

Additional observations from a re-analysis of the deposited data

Results flagged for a closer look

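Of 82 group values tested for a library far from the others of its group (named members and complex sums), 5 were flagged, and chance flags about 1 in 20. Cox6a1 stood at 1443 CPM in db/db replicate 7, where the next library had 1193 CPM. Sdhd stood at 45.6 CPM in db/db replicate 1, where the next had 4.48 CPM, and without this library the log2 fold change of Sdhd was -1.27. Cox7a2l was highest in db/db replicate 8 at 119.9 CPM (next 70.9 CPM), and Cox8a was lowest in the same library at 69.8 CPM (next 366 CPM). Cycs was highest in db/m replicate 5 at 103 CPM (next 76.3 CPM).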

How the results depend on the processing

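The number of members called higher was 17, and 0 were called lower in every setting run. With the share of all genes called higher in brackets (3.91% in the fit reported), it was 20 with DESeq2 (3.77%), 16 with limma-voom (3.59%), 17 with RLE factors (3.85%), 15 with upper-quartile factors (3.65%), 25 without scaling factors (4.99%), 17 without mitochondrially encoded genes (3.9%), 17 with the filter of at least 10 counts in at least 8 libraries (3.83%) and 16 with the robust option (3.87%). With no filter on low counts it was 11 (1.62% of 25107 genes), with the share of reads outside genes as a covariate 0 (1.95%), and without db/db replicates 4 and 7 it was 6 (2.56%). Leaving out each library in turn gave 7 to 20, and 0 lower throughout. The median member value stayed between 0.09 (that covariate) and 0.25 (no library at either end of the first principal component, or subunits only), and between 0.17 and 0.24 when each library was left out. Over the 33 named members, 478 of the single-library values kept their side of the threshold, 77 lost a call and 6 gained one. In the other settings 387 kept it, 66 lost a call and 9 gained one, and no called member changed sign. The covariate of the first principal component and the fit without db/db replicates 4 and 7 were chosen after seeing the data. The causes were not tested.

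Replicate numbers are shared by the groups, but same-numbered libraries did not deviate together: their correlations ran from -0.45 to 0.21, 2 of 8 pairs were over 0.1, and 0 db/m libraries correlated best with their own number. Whether same-numbered libraries share anything besides the number cannot be settled from 8 such correlations. With a replicate block the number called was 2 of 89 (Ndufa5 and Atp5o), where 1.65% of all genes were called higher, 0 were lower, and the median was 0.18.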
